A study of Mus musculus with 2 samples.

Results

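The genes described here are 10 mouse genes for chaperones, disulfide isomerases and stress targets of the endoplasmic reticulum: Calr, Canx, P4hb, Pdia3, Pdia4, Pdia6, Ppib, Serpinh1, Ddit3 and Sdf2l1. They were taken by gene name, with earlier results of these data known. Every probe that carried one of these names was used, which gave 17 of the 41174 gene probes and 10 of the 27962 gene names on the array. The study measured 3T3-L1 cells, an established mouse preadipocyte line that stores fat after differentiation. One group was RNA of adipocyte-derived microvesicles (ADMs), which were spun out of the culture medium by ultracentrifugation, and the other was RNA of the adipocytes that had released them. Both groups shared all treatments: medium with 10% serum, induction with dexamethasone (0.25 µM), insulin (10 µg/ml) and 3-isobutyl-1-methylxanthine (0.5 mM), and harvest on day 11. Each of 2 replicates, called biological in the labels, was a pair of 1 ADM RNA and 1 cell RNA on the same 2-colour array, with 250 ng of each RNA labelled. ADM RNA carried Cy5 in replicate 1 and Cy3 in replicate 2. All material came from a single cell line, and whether the replicates were separate cultures or separate inductions is not given in the labels. The p-values therefore measure the spread between these 2 arrays. In the limma test each probe's own spread was pooled with that of all tested probes, with 2.91 prior degrees of freedom. Directions follow the dye labels, and the RNAs are therefore called ADM-labelled and cell-labelled.

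Proteins destined for secretion or for membranes are folded in the endoplasmic reticulum. Calnexin (Canx) and calreticulin (Calr) hold newly made glycoproteins through their sugar chains, disulfide isomerases form and rearrange disulfide bonds, and prolyl isomerases and the collagen chaperone Hsp47 assist collagen. When unfolded proteins accumulate, the unfolded protein response raises many of these genes through the sensors Ern1, Eif2ak3 and Atf6. Differentiated adipocytes depend on this machinery because they secrete large amounts of adiponectin, a disulfide-linked hormone, and collagens. An mRNA found in a vesicle preparation says nothing by itself about the protein there.

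One sequence feature that several of the genes share is the endoplasmic reticulum stress element (ERSE), the element bound by Atf6 together with the factor NF-Y. It was searched on both strands as CCAAT and CCACG with any 9 bases between them in RefSeq promoters of assembly GRCm38.p6, each 300 bases long, from 250 bases before to 50 after the start. All 10 genes had a promoter in that table. The motif was found in 3 of the 10, against 39 of all 32851 promoters (0.119%). The matches are shown because they carry the element through which the stress response is known to act, with the motif in capitals and 8 flanking bases on each side, each read 5′ to 3′ on the strand of the gene. The Calr match lies at chr8:84847067-84847101 on the minus strand, is in the reverse orientation and spans 162 to 144 bases before the start. The Canx match lies at chr11:50325792-50325826 on the minus strand, 145 to 127 bases before the start. The Pdia6 match lies at chr12:17266483-17266517 on the plus strand, 98 to 80 bases before the start.
Calr: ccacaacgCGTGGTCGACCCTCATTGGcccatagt
Canx: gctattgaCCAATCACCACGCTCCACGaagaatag
Pdia6: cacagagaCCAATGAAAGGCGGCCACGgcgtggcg
The related elements ERSE-II (ATTGG and CCACG with any 1 base between, in 0.0365% of promoters), UPRE (TGACGTGG, 0.676%) and CARE (TGATGNAAT, 0.965%) were found in 0 of the 10 windows. A match is a description of letters and not a shown binding site, and no match says only that these letters are not in this window. The ERSE and ERSE-II share the letters CCACG.

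The scale of the arrays bears on every ratio that follows. Net signal, which is the mean spot signal minus its local background in scanner units, was far brighter in the ADM-labelled channel on both arrays: the median ratio over the 17981 tested probes with net signals above 0 was 39.1-fold in replicate 1 and 7.64-fold in replicate 2. Loess, the main normalization, removes this gap at each brightness and so gives a ratio relative to probes of like signal. Adipocyte markers were well above background in ADM-labelled RNA on both arrays for 10 of 10 genes and in cell-labelled RNA for 9 of 10, with summed net signals of 2738350 and 1350270 against 10868 and 87131. Preadipocyte and fibroblast markers were above background for 10 of 10 genes and 7 of 10, with summed net signals of 199848 and 74203 against 1778 and 6130. Of 9 macrophage and blood cell markers, 4 were above background in ADM-labelled and 3 in cell-labelled RNA (summed net signals of 4602 and 1839 against 384 and 762), while Adgre1, Csf1r, Itgam and Ptprc were so in neither. Endothelial markers were above background for 0 of 6 genes in either RNA, with summed net signals of 113 and 61.8 against 83.3 and 90.2. The part of these channel and marker gaps in the results was not tested. In bulk RNA, fewer vesicles or cells of a kind and less of an mRNA in each of them cannot be told apart.

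Most of the chaperone and isomerase probes were readily detected in both RNAs. In ADM-labelled RNA 16 of 17 probes were well above background on both arrays, and in cell-labelled RNA 13 of 17 were. Pdia6 A_52_P135455 was the exception in ADM-labelled RNA. With loess, 13 of the 17 probes, from 8 genes, could be tested on both arrays with limma, and 4 were higher in ADM-labelled RNA, 1 was lower and 8 did not pass an adjusted p of 0.05. The 4 higher probes belong to P4hb, Pdia6 (2 probes) and Canx, and the lower one to Calr. Over all 18117 tested probes 16.4% were called, 5.52% higher and 10.9% lower. The median log2 ratio of the 13 probes was 0.44, against 0.07 over all tested probes. These counts cover only probes that passed a filter on low signal in 1 RNA, and they were not tested as a set. Of the 13 probes well above background in both RNAs on both arrays, 11 had a value on both, and those of Ddit3 and Pdia3 did not. In a fit over such probes alone, 4 of the 11 were higher and 1 lower, against 12.2% and 21.7% of all 7920. There the 3′ Canx probe passed and the 3′-most Pdia6 probe had no test. In the main fit, the 3 losses besides the near-background Pdia6 probe were 1 each for Ddit3, Pdia3 and Pdia6. Each had a spot whose local background was flagged as outlying on 1 array.

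**Figure D1:**
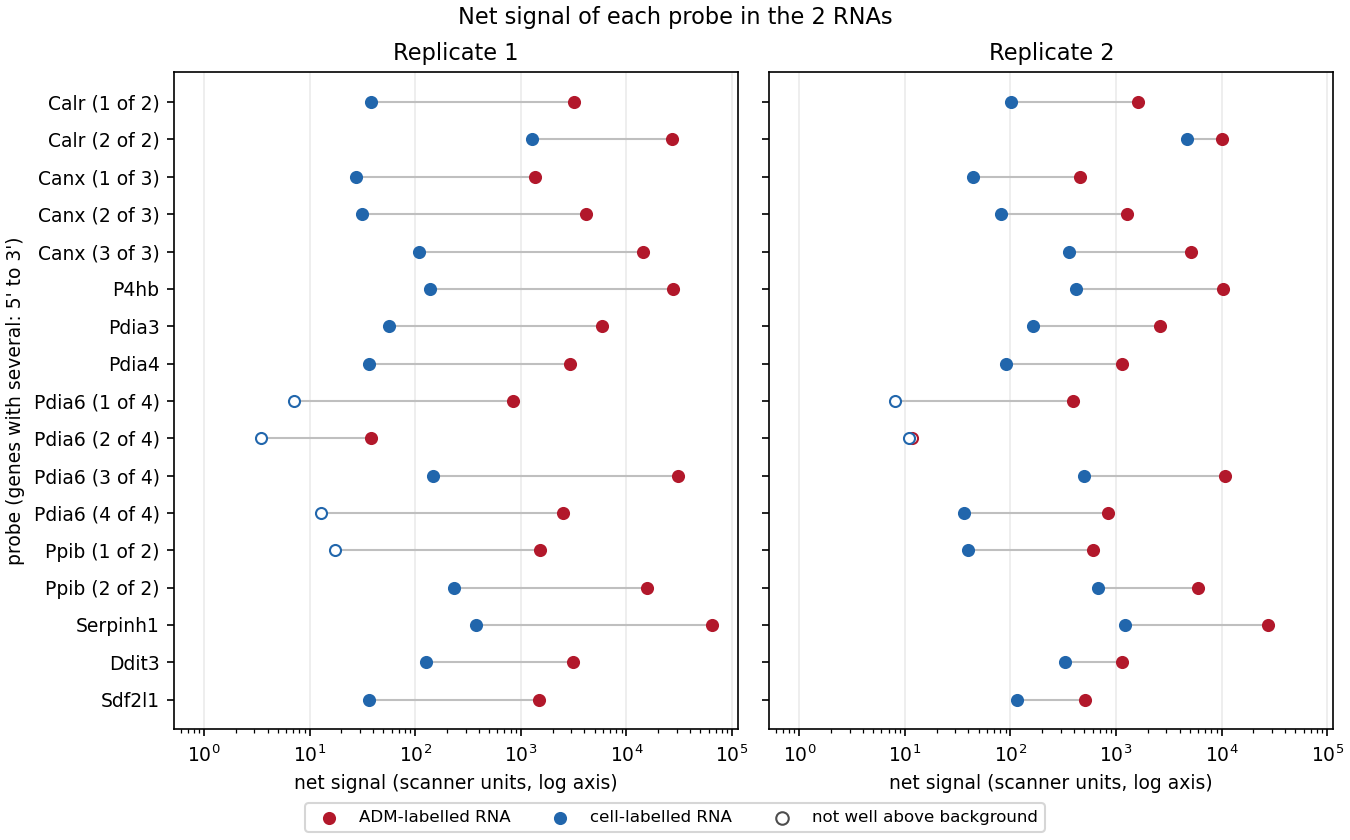
Net signal (x axis, scanner units, log axis) of the 17 probes (y axis) in ADM-labelled and cell-labelled RNA, 1 panel per replicate. A grey line joins both RNAs of a probe, and open points were not well above background. Every probe was brighter in ADM-labelled RNA on both arrays, by 39.1-fold and 7.64-fold for the median tested probe, so the gap and not its sign is the datum. Signals of different probes cannot be set against each other.

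Among the lectin chaperones, Canx was higher in ADM-labelled RNA by 1 of 3 probes. Canx, the membrane-bound lectin of the calnexin cycle, was measured by 3 probes on the minus strand of chromosome 11 (mm7). The middle probe, A_52_P496596 (chr11:50251881-50251940), gave net signals of 4142 in ADM-labelled and 31.6 in cell-labelled RNA in replicate 1. In replicate 2 it gave 1284 and 82.0. Both ratios, 131-fold and 15.6-fold, lay above the array medians. After loess its log2 ratios were 0.62 and 0.59, with a mean of 0.60 ± 0.02 (SD, n = 2; limma adjusted p = 0.0416). With the scanner's own processed signals the value was 0.92 and did not pass (adjusted p = 0.0571).

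The probe nearest the 3′ end of Canx, A_52_P337679 (chr11:50251302-50251361), gave 14451 against 108 in replicate 1 and 5114 against 356 in replicate 2. Its loess ratios were 0.52 and 0.53, nearly equal on both arrays, with a mean of 0.53 ± 0.01 (SD, n = 2) that missed the threshold narrowly (limma adjusted p = 0.0521). The 5′-most probe, A_51_P242143 (chr11:50253061-50253842), gave 1374 against 27.5 and 460 against 44.3. It lay close to 0 on the loess scale, with −0.09 and 0.14 and a mean of 0.02 ± 0.16 (SD, n = 2; adjusted p = 0.901), so the arrays differed in sign. The middle and the 5′ probe differed by 0.58 (limma over probe pairs, adjusted p = 0.0394), but by 0.61 with processed signals without passing (adjusted p = 0.352). The middle and the 3′ probe differed by −0.08 (adjusted p = 0.788).

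Calr, the soluble lectin of the lumen, had 2 probes on opposite sides of 0 after loess, of which only the 3′ probe passed. Both match the minus strand of chromosome 8 (mm7), 2337 bases apart. The probe nearer the 5′ end, A_52_P672212 (chr8:83430740-83430799), gave net signals of 3215 in ADM-labelled and 37.8 in cell-labelled RNA in replicate 1, and of 1614 and 102 in replicate 2. Its loess ratios were 0.26 and 0.63, with a mean of 0.44 ± 0.26 (SD, n = 2) that did not pass (limma adjusted p = 0.117). Like most of the chaperone probes, it lay on the ADM side on both arrays.

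The other Calr probe, A_51_P416419 (chr8:83428403-83428462), gave net signals of 26847 and 1269 in replicate 1. In replicate 2 it gave 10062 and 4691. ADM-labelled RNA was thus only 21.2-fold and 2.14-fold brighter, below the median of tested probes on both arrays. After loess its log2 ratios were −2.87 and −2.39, with a mean of −2.63 ± 0.34 (SD, n = 2; limma adjusted p = 0.00747), which is 6.19-fold lower in ADM-labelled RNA. That direction turned with both median centrings, to 0.36 when centred on the tested probes and 2.40 when centred on all gene probes, whereas centred net signals gave −1.36.

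The disagreement of the Calr probes did not turn under the scalings tried. The 3′ probe minus the 5′ probe was −3.13 in replicate 1 and −3.01 in replicate 2, with a mean of −3.07 ± 0.08 (SD, n = 2; SE 0.16; limma over 6655 probe pairs, adjusted p = 4.71e-06). It was −1.58 with median centring (adjusted p = 0.00731), −2.80 with processed signals (adjusted p = 0.0382) and −2.44 with centred net signals (adjusted p = 0.0406). Among the pairs, which came from 3997 genes, 21.8% were called, the median size of a difference was 0.25, and Calr stood 101st by size. Which probe describes Calr mRNA was not tested, and no direction for the gene as a whole is given.

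**Figure D2:**
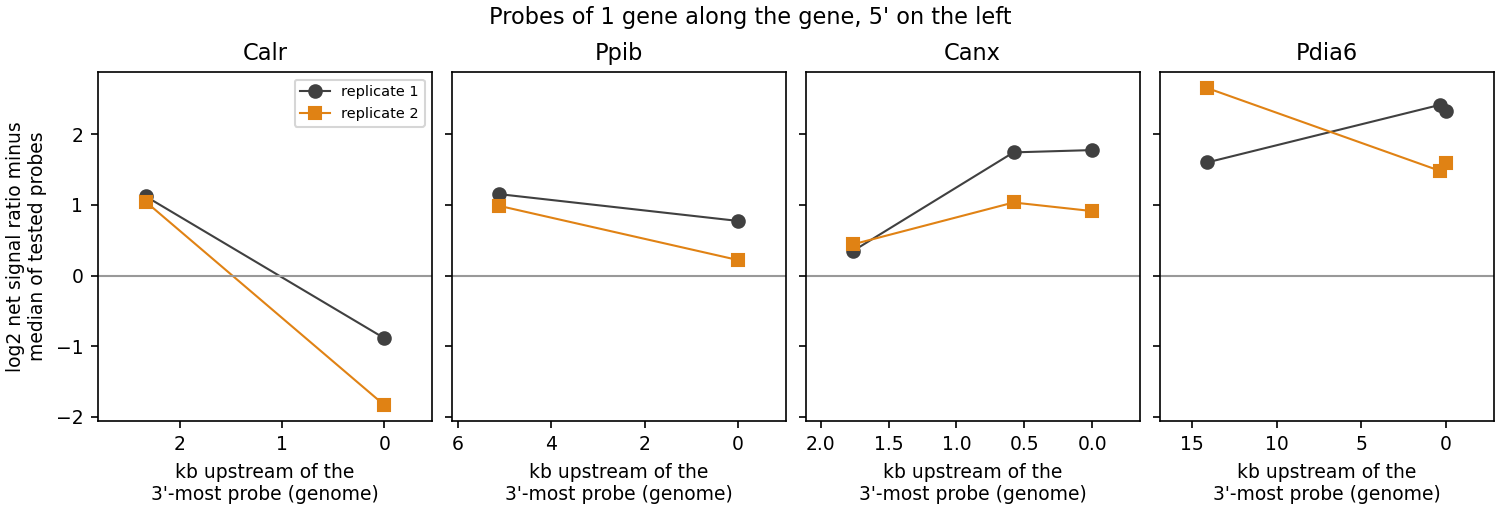
Log2 ratio of net signals minus the array's median over tested probes (y axis) for the genes with several probes, by distance in the genome from the 3′-most probe (x axis, kb, 5′ on the left). Circles are replicate 1 and squares replicate 2. In Calr the 3′ probe lies below 0 and the 5′ probe above 0 on both arrays, while the drawn probes of Canx, Ppib and Pdia6 lie above 0. Pdia6 A_52_P135455, which did not pass the filter, is not drawn.

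Of the 4 disulfide isomerases, P4hb and Pdia6 were higher in ADM-labelled RNA, Pdia4 did not pass and Pdia3 had a main value on 1 array. P4hb encodes protein disulfide isomerase, which is also the beta subunit of the collagen prolyl 4-hydroxylase. Its probe, A_51_P311990 (chr11:120669807-120669866, minus strand), gave net signals of 27767 and 138 in replicate 1 and of 10251 and 416 in replicate 2. ADM-labelled RNA was 202-fold and 24.7-fold brighter, above the tested median both times. The loess ratios of 0.84 and 1.23 had a mean of 1.03 ± 0.28 (SD, n = 2), which is 2.05-fold higher (limma adjusted p = 0.0290). The value was 1.27 with processed signals (adjusted p = 0.0302), 3.46 when median-centred on the tested probes and 2.03 with centred net signals.

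Pdia6, an isomerase known to bind the stress sensor Ern1, was measured by 4 probes on the plus strand of chromosome 12 (mm7). The 2 nearest the 3′ end lie 360 bases apart. A_52_P70810 (chr12:17333185-17333244) had net signals of 30836 and 148 in replicate 1, and of 10669 and 500 in replicate 2. Its loess ratios were 0.84 and 1.03, with a mean of 0.93 ± 0.13 (SD, n = 2; limma adjusted p = 0.0246), or 1.91-fold higher in ADM-labelled RNA. A_51_P297968 (chr12:17333545-17333604) had 2534 and 12.9, then 848 and 36.7, and was above background in cell-labelled RNA on array 2 alone. It was higher by 0.81 ± 0.06 (SD, n = 2; 0.76 and 0.85; adjusted p = 0.0276), but it passed the filter through ADM-labelled RNA alone, and no fold is given. The 2 probes differed by 0.13 without passing (limma over pairs, adjusted p = 0.648), and by 1.47 with median centring over gene probes (adjusted p = 0.00766).

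The other 2 Pdia6 probes were dim. The 5′-most probe, A_52_P339495 (chr12:17319454-17319513), gave 851 and 7.17 in replicate 1 and 391 and 8.14 in replicate 2, and cell-labelled RNA was not well above background on either array. Its flagged background left only replicate 2 with a main value, of 0.91. When only local backgrounds above 100 scanner units were left out, a choice made after the data were seen, it had 0.41 and 0.90, with a mean of 0.65 ± 0.35 (SD, n = 2; limma adjusted p = 0.0650). Since cell-labelled RNA was not well above background, no fold is given. A_52_P135455 (chr12:17331366-17331425), which matches a cDNA clone, gave 38.0 and 3.49, then 11.6 and 11.0, and did not pass the filter.

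Pdia3, the isomerase that works with Canx and Calr on glycoproteins, lay on the ADM side. Its probe A_51_P168412 (chr2:121178655-121178715, plus strand) gave net signals of 5894 and 56.5 in replicate 1 and of 2615 and 164 in replicate 2, where its local background was flagged at 27 scanner units for ADM-labelled and 39 for cell-labelled RNA. Only replicate 1 therefore had a main loess value, 0.41. With only backgrounds above 100 left out the ratios were 0.42 and 0.67, with a mean of 0.54 ± 0.18 (SD, n = 2) that did not pass (limma adjusted p = 0.0555). Pdia4, known as ERp72, gave 2925 and 36.3, then 1130 and 91.5, with probe A_51_P328300 (chr6:47755834-47755893, minus strand). Both loess values were small and positive, 0.21 and 0.34, with a mean of 0.27 ± 0.09 (SD, n = 2; adjusted p = 0.176).

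**Figure D3:**
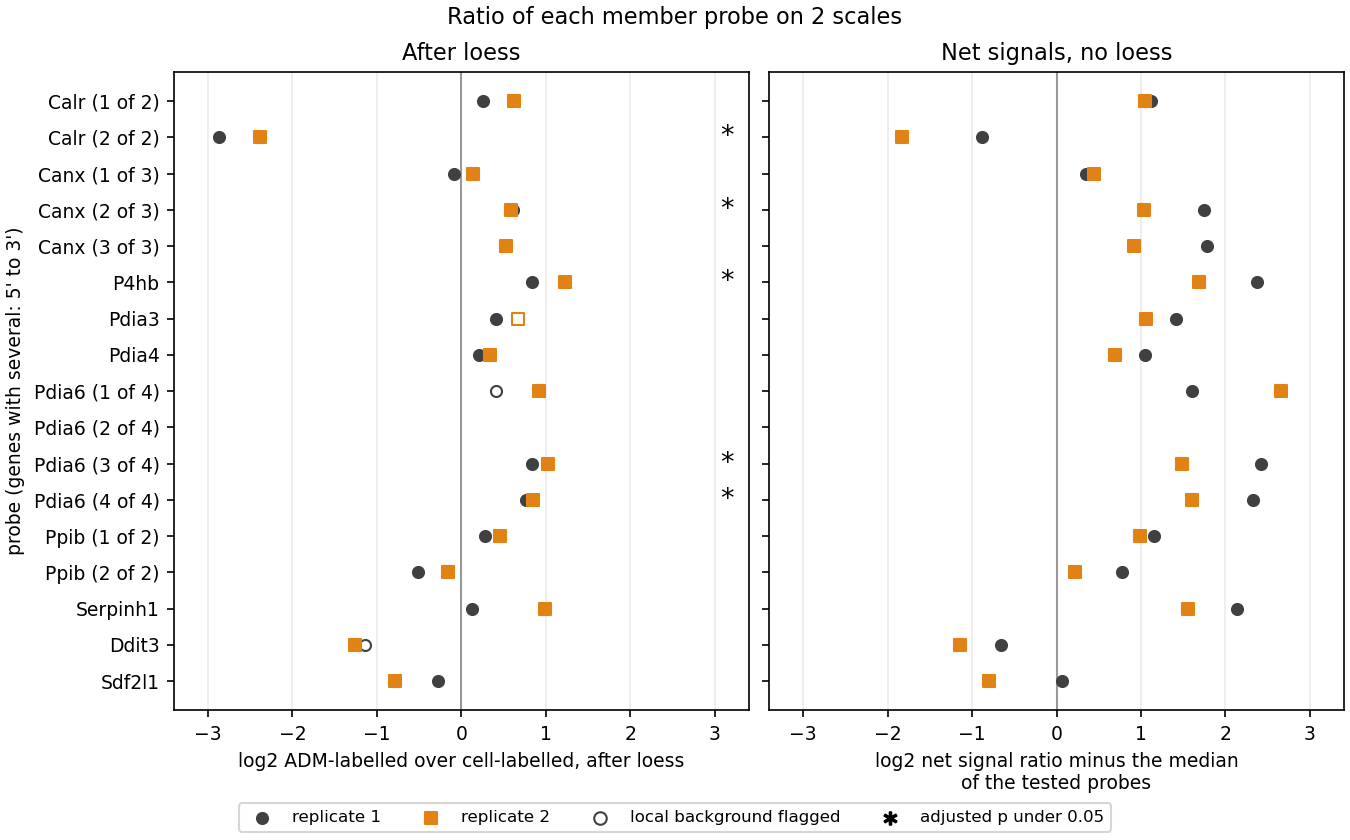
Log2 ratio of ADM-labelled over cell-labelled RNA (x axis) for each probe (y axis) after loess (left) and as net signals minus the median of the tested probes, without loess (right). Circles are replicate 1, squares replicate 2; open symbols had a flagged local background and show the value with only backgrounds above 100 left out; asterisks mark a limma adjusted p under 0.05 after loess. P4hb and both 3′ probes of Pdia6 lie to the right on both scales, the 3′ Calr probe and Ddit3 to the left. The filtered-out Pdia6 probe has no point.

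Serpinh1 and Ppib, which assist collagen, did not pass the test. Serpinh1, which encodes the collagen chaperone Hsp47, gave with probe A_51_P287069 (chr7:95376252-95376313, minus strand) net signals of 65267 and 378 in replicate 1 and of 27435 and 1219 in replicate 2. The net ratios, 173-fold and 22.5-fold, were both above the tested medians. The loess ratios differed widely between the arrays, 0.13 and 0.99, with a mean of 0.56 ± 0.61 (SD, n = 2; limma adjusted p = 0.192). With processed signals the value was 1.14 and passed (adjusted p = 0.0400).

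Ppib, the prolyl isomerase cyclophilin B, which takes part in collagen hydroxylation and folding, had 2 probes on the plus strand of chromosome 9 (mm7). The 5′ probe, A_51_P327825 (chr9:66090015-66091140), gave 1524 and 17.5, then 603 and 39.8, and was above background in cell-labelled RNA on array 2 alone. It had loess ratios of 0.28 and 0.46, with a mean of 0.37 ± 0.13 (SD, n = 2; adjusted p = 0.112), while processed signals gave 1.20 (adjusted p = 0.0406). The 3′ probe, A_51_P327828 (chr9:66096189-66096248), gave 15716 and 235, then 6040 and 679. Its loess ratios were on the cell side, −0.52 and −0.16, with a mean of −0.34 ± 0.25 (SD, n = 2; adjusted p = 0.182), and turned to 2.05 when median-centred on the tested probes and 0.50 with centred net signals. The 3′ probe minus the 5′ probe was −0.71 (limma over pairs, adjusted p = 0.0159), −1.51 with processed signals (adjusted p = 0.0933) and −0.57 with centred net signals (adjusted p = 0.384), but 0.77 with median centring over gene probes (adjusted p = 0.127). No direction is given for Ppib.

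The stress targets lay on the cell side after loess. Ddit3 encodes CHOP, a transcription factor raised through Eif2ak3 and Atf4 in prolonged stress. Its probe A_52_P533146 (chr10:126796858-126797161, plus strand) gave net signals of 3143 and 127 in replicate 1 and of 1149 and 332 in replicate 2, ratios of 24.7-fold and 3.47-fold, which were below the tested medians on both arrays. Replicate 1 had a flagged background, of 34 scanner units for ADM-labelled and 22 for cell-labelled RNA, so only the −1.26 of replicate 2 stood after loess, which turned to 0.06 when centred on the tested probes. With only backgrounds above 100 left out, Ddit3 had −1.14 and −1.25, with a mean of −1.20 ± 0.08 (SD, n = 2; limma adjusted p = 0.0117). In that setting 5 of 16 member probes were higher and 2 lower, against 6.94% and 12.5% of all 19803 probes tested.

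Sdf2l1, a partner of the lumenal chaperone complex, gave 1483 and 36.2, then 509 and 116, with probe A_51_P280446 (chr16:16680066-16680125, minus strand). Its loess ratios of −0.28 and −0.78 had a mean of −0.53 ± 0.36 (SD, n = 2), which did not pass (limma adjusted p = 0.112). The direction was not stable across scalings: median centring on the tested probes gave 0.56 and centred net signals gave −0.37. Of the net ratios, 41.0-fold was just above the tested median of replicate 1 and 4.37-fold below that of replicate 2.

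Counted without loess, the group lay mainly on the ADM side. Of the 16 probes that passed the filter, 13 had a ratio of net signals above the tested median on both arrays, against 41.4% of all 19655 probes that passed. The 3′ Calr probe and Ddit3, 2 of the 16, were below it on both arrays, against 40.1%, and Sdf2l1 was mixed. The 5′-most and 3′-most Pdia6 probes and the 5′ Ppib probe, all among the 13, passed the filter through ADM-labelled RNA alone. The filter favoured high ratios for such probes, which the share over all probes includes too. After loess, 12 of the 13 tested probes had the same sign on both arrays, as did 81% of all tested probes. How many probes were called depended on the scaling. With the scanner's processed signals, 5 of 13 were higher and 1 lower, against 32% and 14.2% of all probes. With centred net signals, 6 were higher and 1 lower, against 13.5% and 26.2%. With median centring on the tested probes, 11 were higher and 0 lower, against 36.1% and 36.3%, and with centring over all gene probes 13 and 0, against 59.5% and 1.46%. Median centring leaves the trend of the ratio with brightness in place, as does the count of net ratios against the tested median. The members were not matched to other probes by brightness, and these counts were read in no other way. The higher direction of P4hb, of both 3′ Pdia6 probes and of the middle Canx probe was the same under all scalings tried. So was the positive sign of the 3′ Canx, 5′ Calr, Pdia4, Serpinh1 and 5′ Ppib probes, which did not pass with loess.

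Beyond the 10 genes, 6 lists of related genes were described from the same fit. Among luminal chaperones and co-chaperones, 33 probes of 17 genes were tested, of which 7 were higher and 3 lower; the other 23 missed the threshold, and the median was 0.33. With processed signals 15 were higher and 1 lower, and when centred on the tested probes 25 were higher and 4 lower. Calu, the calcium-binding protein calumenin, was higher by 1.41 ± 0.13 (SD, n = 2; limma adjusted p = 0.0135) with 1 probe, while its other probe gave 0.15. Sdf2, the paralogue of Sdf2l1, was higher by 0.91 ± 0.06 (adjusted p = 0.0231), and both probes of Rcn3 were higher by 0.78 and 0.67. Hsp90b1, or Grp94, was lower, at −0.94 ± 0.22 and −0.72 ± 0.06 with its 2 probes (adjusted p = 0.0287 and 0.0315), and Hspa5, or BiP, gave −0.48 ± 0.17 without passing (adjusted p = 0.0769). Median centring on the tested probes turned these to 1.67, 1.66 and 2.26. Centred net signals gave 0.03, 0.08 and 0.63, and processed signals −0.72, −0.65 and −0.10. Sdf4 was split, at −1.14 ± 0.33 with 1 probe (adjusted p = 0.0287) and 0.57 with another (adjusted p = 0.0453). Centring on the tested probes turned the former to 1.37, but it was −0.26 with centred net signals and −1.03 with processed signals.

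Disulfide isomerases and oxidases other than the members gave 7 higher and 0 lower of 31 tested probes, with a median of 0.35 and 24 that did not pass. With processed signals 19 were higher and 2 lower, and when centred on the tested probes 15 were higher and 9 lower. Tmx2, a membrane-bound thioredoxin relative, was higher by 1.65 ± 0.30 (SD, n = 2; limma adjusted p = 0.0151) and, with another probe, by 0.71 (adjusted p = 0.0445). That other probe was above background in cell-labelled RNA on array 2 alone, so it passed the filter through ADM-labelled RNA alone. Txndc15 was higher by 1.60 ± 0.22 (adjusted p = 0.0136). Prdx4, the peroxiredoxin of the lumen that passes oxidising power to disulfide isomerases, was higher by 1.33 ± 0.14 (adjusted p = 0.0148). A probe named Ero1lb, singled out after its values were seen, gave −2.01 and −4.78 on the 2 arrays and did not pass (adjusted p = 0.0533). It was not well above background in ADM-labelled RNA on either array, and passed the filter through cell-labelled RNA alone. Other probes of this gene, under its current name Ero1b, gave 0.04 and 0.11 without passing (limma adjusted p = 0.845 and 0.567). Among genes for collagen folding and modification, 7 of 18 probes were higher and 1 was lower, 10 missed the threshold and the median was 0.58; processed signals gave 11 higher and 1 lower, and centring on the tested probes 15 and 1. The prolyl isomerases Fkbp9 (1.70 ± 0.25, adjusted p = 0.0135), Ppic (1.23 ± 0.32, adjusted p = 0.0248) and Fkbp7 (1.22 ± 0.25, adjusted p = 0.0220) were higher. Crtap, which forms a complex with Ppib, was lower, at −0.91 ± 0.04 (adjusted p = 0.0229). It was 1.52 when centred on the tested probes, but −0.09 with centred net signals and −0.87 with processed signals.

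Genes of the unfolded protein response were split after loess: of 24 tested probes 3 were higher, 3 lower and 18 did not pass, around a median of 0.07. With processed signals 8 were higher and 3 lower, and when centred on the tested probes 15 were higher and 5 lower. In the fit over probes well above background in both RNAs, 3 of 16 were higher and 4 lower. Their median was −0.24, against −0.06 over all such probes. Xbp1, the factor spliced by Ern1, was higher by 1.01 ± 0.22 (SD, n = 2; limma adjusted p = 0.0264), as were Mbtps1, the protease that releases Atf6 (1.36 ± 0.23, adjusted p = 0.0178 with 1 probe, 0.62 and 0.17 with the others), and Wfs1 (0.64 ± 0.10, adjusted p = 0.0414). The immediate stress genes Atf3 (−1.60 ± 0.62, adjusted p = 0.0323) and Ppp1r15a (−1.36 ± 0.32, adjusted p = 0.0222) were lower. When centred on the tested probes, Atf3 gave −0.90 (limma adjusted p = 0.0176), while Ppp1r15a gave −0.19 and did not pass (adjusted p = 0.638). Nupr1 was lower, at −0.91 ± 0.16 (adjusted p = 0.0270). It was 1.64 when centred on the tested probes, 0.01 with centred net signals and −0.78 with processed signals. The sensors and Atf4 did not pass: Atf4 gave −0.02 ± 0.15 (adjusted p = 0.906), Eif2ak3 0.34 ± 0.19 (adjusted p = 0.150), Ern1 −0.68 ± 0.40 (adjusted p = 0.0793), and the Atf6 probes 0.34 (adjusted p = 0.116) and 0.48 (adjusted p = 0.0626).

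For the calnexin cycle and degradation, 10 of 28 probes were higher and 1 was lower, 17 missed the threshold and the median was 0.49; processed signals gave 16 higher and 1 lower, and centring on the tested probes 17 and 4. Syvn1, the ubiquitin ligase of this degradation pathway, was higher by 1.00 ± 0.26 (SD, n = 2; limma adjusted p = 0.0290). Vcp, the ATPase that pulls proteins out of the membrane, was higher by 0.89 ± 0.32 (adjusted p = 0.0399) with 1 probe. Its other probe gave −0.97 on replicate 2 and, with only backgrounds above 100 left out, −1.07 (limma adjusted p = 0.0159), so no direction is given for Vcp. Mogs, the glucosidase that trims the first sugar of the glycan, had probes on opposite sides of 0, at 1.49 ± 0.09 (adjusted p = 0.0111) and −2.65 ± 0.04 (adjusted p = 0.00342), so its direction is not given. For the translocon and signal peptide processing, 9 of 39 probes were higher and 2 were lower, 28 missed the threshold and the median was 0.29; processed signals gave 18 higher and 1 lower, and centring on the tested probes 25 and 2. The oligosaccharyltransferase subunits Rpn2 (1.41 ± 0.53, adjusted p = 0.0327, with a like call from its other probe, adjusted p = 0.0430) and Rpn1 (1.11 ± 0.39, adjusted p = 0.0336) were higher. The small channel subunits Sec61g (−1.85 ± 0.39, adjusted p = 0.0160) and Sec61b (−0.83 ± 0.28, adjusted p = 0.0406) were lower, but 1.17 and 1.89 when centred on the tested probes. Centred net signals gave −0.53 and 0.24, and processed signals −1.21 and −0.51. None of the 6 lists was tested as a set. Their loess counts stand beside the 5.52% higher and 10.9% lower of all tested probes. Their counts with processed signals stand beside 32% and 14.2%, and those centred on the tested probes beside 36.1% and 36.3%. Some list probes passed the filter through ADM-labelled RNA alone. In the fit over probes well above background in both RNAs, 12.2% of all 7920 were higher and 21.7% lower. There, luminal chaperones gave 9 higher and 4 lower of 21, and other isomerases and oxidases 5 and 0 of 11. Collagen folding gave 6 and 2 of 10, and the unfolded protein response 3 and 4 of 16. The calnexin cycle gave 10 and 1 of 16, and the translocon 8 and 2 of 23.

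**Figure D4:**
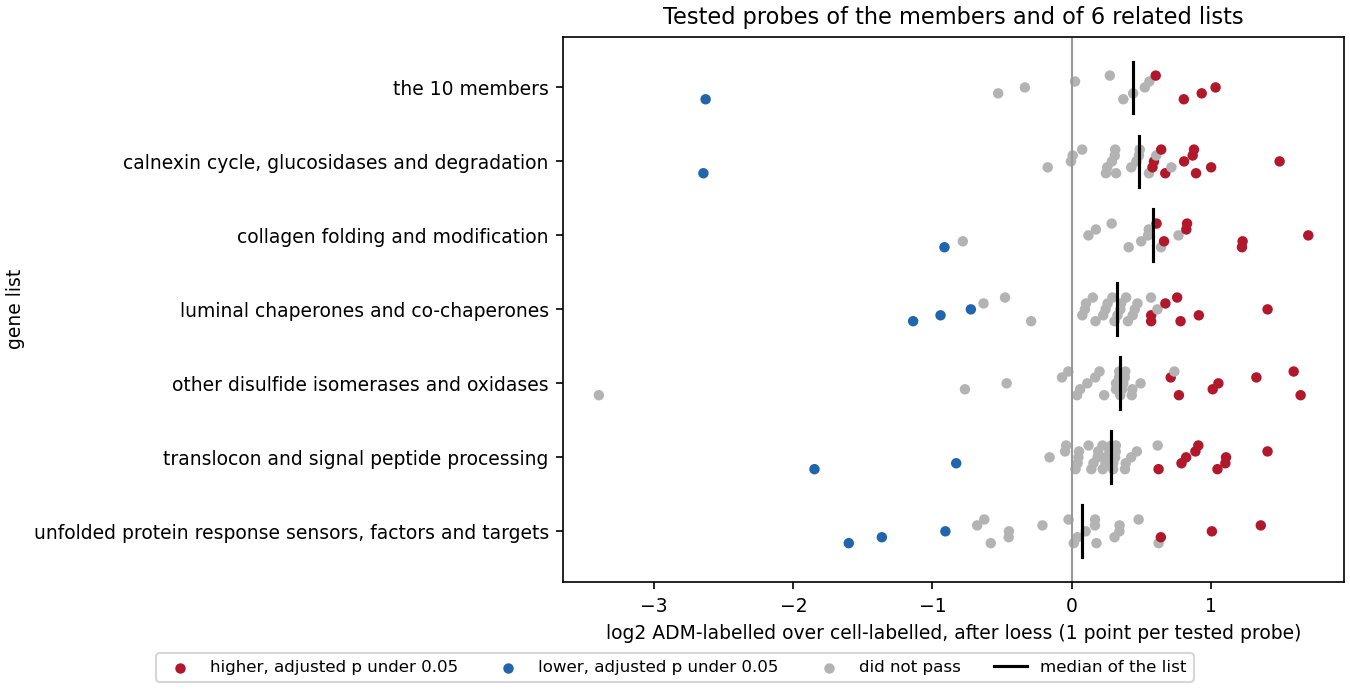
Log2 ratio after loess (x axis) of each tested probe of the 10 genes and of 6 related lists (y axis); red and blue points passed a limma adjusted p of 0.05, and the black bar is the median. The medians lie between 0.07 for the unfolded protein response and 0.58 for collagen folding, with 0.44 for the 10 genes.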

How the data were processed

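ADM RNA and donor cell RNA were measured on 2 Agilent 2-colour mouse arrays with exchanged dyes. Mean spot intensity and median local background intensity were deposited unnormalized, from Feature Extraction 10.5.1.1 with mm7 annotation, per the file headers. The deposited log10 ratio and processed signal intensities were background-subtracted, detrended and dye-normalized by that software, per the file headers, and the deposited series table repeats the log10 ratio turned towards ADMs. Other values are spot flags, as deposited.

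Spots with a flagged local background (2303 and 1710) or an outlier flag (293 and 253) were left out, so that 3198 of 41174 probes lacked a value on 1 array or both, a choice taken over from an earlier analysis that had seen its effect. Background was corrected by normexp (offset 50) and ratios by loess, and probes that both arrays flagged well above background in the same RNA were tested in R 4.3.3 with limma 3.58.1 (Benjamini-Hochberg adjustment over all probes; 2.91 prior degrees of freedom). The script was tested on simulated data. RefSeq accessions named 22951 probes, and 18223 kept the file's name. The precision is limited by the number of arrays. Members and lists were chosen with earlier results of these data known. Named genes are all members, the 3 highest and 3 lowest called probes of each list, and 7 fixed genes: Xbp1, Atf4, Atf6, Ern1, Eif2ak3, Hspa5 and Hsp90b1. Alternatives varied scaling, offset, background, filter, prior and replicate.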

Additional observations from a re-analysis of the deposited data

How the results depend on the processing

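Over all tested probes, higher and lower calls numbered 1000 and 1969 with loess. They numbered 10778 and 265 with median centring over gene probes, 6534 and 6582 when centred on the tested probes, 1864 and 3059 with offset 10, 1837 and 2963 with scaling between arrays, and 2435 and 4706 with plain subtraction and centring. Higher calls alone moved to 474 with plain subtraction, 5798 with processed signals and with the deposited table, and 1706 with a trended prior. The share of calls that were higher was 33.7% with loess, 69.3% with processed signals, 97.6% with centring over gene probes and 49.8% when centred on the tested probes; the median of all tested probes was 2.04 with centring over gene probes and 0.69 with processed signals. With outlying backgrounds kept, limma called 0 higher and 0 lower (158 probes at an unadjusted p under 0.05). Leaving out only the 13 and 8 spots with a local background above 100 gave 1375 and 2472.

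Of the member probes, 4 were higher and 1 lower. Centring over gene probes gave 13 and 0, centring on the tested probes 11 and 0, plain subtraction 0 higher (adjusted p from 0.0571 for P4hb), outlying backgrounds kept 0 and 0, and only backgrounds above 100 left out 2 lower. Their median of 0.44 became 3.98, 1.94, 0.77 (processed signals, and the deposited table), 0.10 (backgrounds kept) and 1.09 (plain subtraction and centring), and ranged from 0.26 to 0.53 when either replicate was left out. The Calr probe difference then ranged from −3.13 to −3.01.

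Signs turned for the 5′ Canx probe (−0.059 with offset 10, −0.074 with plain subtraction), for Sdf2l1 (2.60 and 0.56 with the 2 centrings), for Ddit3 in replicate 2 (0.06 when centred on the tested probes), for the 3′ Calr probe (2.40 and 0.36), and for the 3′ Ppib probe (4.09 and 2.05, 0.075 with backgrounds kept, 0.50 with plain subtraction and centring). Probe differences turned for the 3′ and middle Canx probes (0.61 with centring over gene probes), Ppib (0.77) and Pdia6 (−0.81 with processed signals, −0.014 with plain subtraction and centring). The cause of these turns was not tested. Centred fits had infinite prior degrees of freedom, so their p-values do not reflect a probe's own spread. No paired analysis was possible because a block has nothing left to take out: each ratio already is taken within its pair, so the test of the ratios is itself paired. With 1 array left out, no residual degree of freedom was left and nothing was tested.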
